A study of Mus musculus with 6 samples.

Results

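Enzymes that break down or build sphingomyelin and ceramide were followed in the jejunal mucosa of mice with an overactive SREBP2, a transcription factor that switches on cholesterol synthesis and uptake. The 10 genes were Enpp7, Asah2, Smpd1, Asah1, Sptlc1, Sptlc2, Degs2, Sgms1, Sgms2 and Ugcg, out of 19938 genes tested. Each was taken as the array row annotated with that gene symbol alone. They were chosen by their role, with their log2 changes between ISR2 and wild type in view. Where a gene has several such rows, the row with the highest mean over all arrays was to be used, but all 10 genes had 1 row, so that choice did not arise. The tested animals were ISR2 transgenic mice, in which SREBP2 is overactivated specifically in the intestine, with 3 arrays. They were compared with wild type littermates, also with 3 arrays. Both groups were C57/BL mice of 8 to 10 weeks on regular chow, and the RNA came from mucosa scraped off the jejunum. The sources used here give neither the construct nor the promoter that drives it. The labels do not state that each array is a separate mouse, so the p-values speak only for the spread of these arrays.

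Sphingomyelin is a membrane lipid of the diet and of shed cells, and it also packs with cholesterol in cell membranes. In the gut lumen it is cut to ceramide by the alkaline sphingomyelinase Enpp7, an ectoenzyme of the enterocyte brush border. The neutral ceramidase Asah2, anchored in the same membrane, then releases sphingosine and a fatty acid. Inside cells the lysosomal enzymes Smpd1 and Asah1 carry out the same reactions on membrane that reaches the lysosome. Serine palmitoyltransferase, built on Sptlc1 and Sptlc2, starts new synthesis of ceramide, which Sgms1 and Sgms2 turn into sphingomyelin and Ugcg into glucosylceramide.

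The values are log2 signals made with RMA, a method that brings arrays to 1 distribution and merges the probes of a gene. The medians of the 6 arrays lay between 6.04 and 6.19, and the number of arrays limits the precision. Srebf2, the gene of SREBP2, was higher on all 3 ISR2 arrays (11.02, 10.85 and 11.16) than on the wild type arrays (9.04, 9.15 and 9.50). The share of that signal that comes from the transgene is not known here. Enterocyte markers were high, with all 13 measured genes between 10.6 and 14.1. Liver and pancreas markers lay between 4.55 and 6.60. Smooth muscle and stroma markers were unevenly spread over the arrays: their summed signal, given as the log2 of the sum, was 11.5, 13.1 and 11.5 in ISR2 replicates 1, 2 and 3 and 10.7, 13.9 and 11.3 in wild type replicates 1, 2 and 3. That list was high on replicate 2 of both groups, and 0 of its 11 genes passed limma's test, with 0 at an unadjusted p under 0.05, which 13.1% of all genes had.

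The brush border pair was lower in ISR2 mucosa and the lysosomal pair was higher, while the 6 genes that make or use ceramide did not pass. Changes below come from a limma fit over all 19938 genes, with p-values adjusted by Benjamini-Hochberg over all of them and a threshold of 0.05. Of the 10 genes, 2 rose and 2 fell, against 3.02% of all genes called in either direction. The genes were proposed with results of this same contrast known, so that count is a description and not independent evidence. The median log2 change of the 10 was -0.02, beside -0.06 over all genes.

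**Figure D1:**
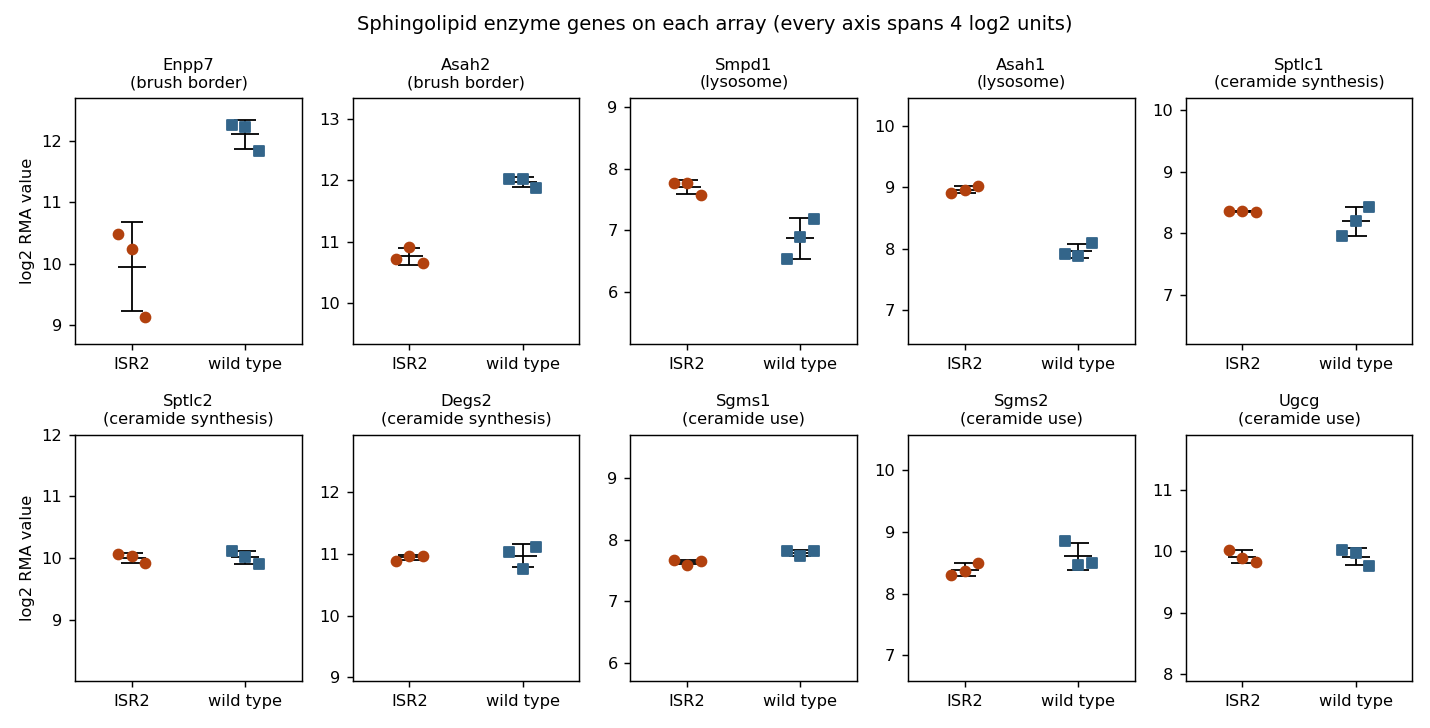
Log2 RMA values (vertical axes, each spanning 4 log2 units) of the 10 enzyme genes on the 3 ISR2 arrays (circles, left) and the 3 wild type arrays (squares, right), with the group mean and SD as bars. Enpp7 and Asah2 lie lower and Smpd1 and Asah1 higher on every ISR2 array, and the groups overlap for the other genes except Sgms1, which has a gap of 0.07.

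The start regions of Enpp7, Asah2 and Smpd1, 3 of the 4 called enzymes, are shown because 2 genes fell together and 2 rose together. A promoter of 250 bases before to 50 bases after the gene start, from RefSeq on GRCm38.p6, was found for 9 of the 10 genes, all but Asah1. Enpp7 lies at chr11:118987931-118988230 on the plus strand, Asah2 at chr19:32103091-32103390 on the minus strand and Smpd1 at chr7:105554110-105554409 on the plus strand. Each is written 5′ to 3′ on the strand of its gene, and capitals mark the reverse complement of CCAAT in Smpd1.
Enpp7: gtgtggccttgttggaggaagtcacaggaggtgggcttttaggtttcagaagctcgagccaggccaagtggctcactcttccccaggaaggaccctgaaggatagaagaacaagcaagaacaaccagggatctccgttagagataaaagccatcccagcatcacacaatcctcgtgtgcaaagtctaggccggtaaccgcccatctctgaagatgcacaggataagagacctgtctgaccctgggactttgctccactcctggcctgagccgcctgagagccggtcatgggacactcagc
Asah2: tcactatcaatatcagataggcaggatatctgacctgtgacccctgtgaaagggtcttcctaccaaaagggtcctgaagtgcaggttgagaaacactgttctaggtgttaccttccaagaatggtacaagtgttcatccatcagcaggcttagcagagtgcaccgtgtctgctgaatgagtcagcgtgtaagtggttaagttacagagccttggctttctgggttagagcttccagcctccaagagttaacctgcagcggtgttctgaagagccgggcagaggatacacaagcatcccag
Smpd1: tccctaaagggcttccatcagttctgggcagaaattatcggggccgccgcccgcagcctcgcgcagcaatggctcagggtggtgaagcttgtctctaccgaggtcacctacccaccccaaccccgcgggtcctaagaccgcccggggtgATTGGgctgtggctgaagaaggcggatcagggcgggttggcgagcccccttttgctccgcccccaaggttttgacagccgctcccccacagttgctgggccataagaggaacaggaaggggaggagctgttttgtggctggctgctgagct

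Both strands of all 17 promoters of the 9 genes were searched for the sterol response element TCACNCCAC, the E-box CACGTG and the CCAAT box CCAAT. The sterol response element was in 0 of the 17 windows, and 1.24% of 32851 mouse promoters of this length hold it. The Enpp7 and Asah2 windows held none of the motifs, and Smpd1 held a CCAAT box on its minus strand, at positions -101 to -97 from the start. The only E-box in the 17 windows was in 1 of the 6 promoters of Sgms2, and 7.15% of all promoters hold this motif. CCAAT was also in the windows of Sptlc1, Sptlc2 (3 matches), Sgms1 (1 of 4 promoters) and Sgms2 (2 of 6), against 37.4% of all promoters. No matches of different motifs overlapped.

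Enpp7 encodes the enzyme that starts sphingomyelin digestion at the intestinal surface. Its log2 value was 10.49, 10.24 and 9.13 on ISR2 arrays 1, 2 and 3, against 12.26, 12.22 and 11.82 on wild type arrays 1, 2 and 3. All ISR2 arrays lay below all wild type arrays, with a gap of 1.34 between the groups, and ISR2 replicate 3 was the lowest. The gene fell 4.43-fold, a log2 change of -2.15 ± 0.31 (SE, 3 arrays per group; adjusted p = 0.00569 in limma; 95% interval -2.86 to -1.44). ISR2 arrays differed more among themselves (SD 0.72) than wild type arrays (SD 0.24). Without ISR2 replicate 3 the log2 change was -1.73 with an adjusted p of 0.00174, and it stayed between -2.41 and -1.73 over the 6 fits that left out 1 array each.

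Asah2, the brush border ceramidase, moved the same way. It stood at 10.72, 10.92 and 10.65 on the ISR2 arrays and at 12.02, 12.02 and 11.88 on the wild type arrays. The groups were 0.96 apart at their nearest, with little spread in either (SD 0.14 in ISR2, 0.08 in wild type). The log2 change was -1.21 ± 0.13 (SE), a 2.31-fold fall (adjusted p = 0.000885 in limma; 95% interval -1.50 to -0.92). Leaving out 1 array at a time gave -1.28 to -1.15. In the RefSeq gene order of GRCm38.p6, Asah2 and Sgms1 are neighbours on chromosome 19 with 0 protein-coding genes between them, and Sgms1 differed by -0.15.

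Most enterocyte and T cell markers had lower values too, and their part in the falls of Enpp7 and Asah2 was not tested. All 6 goblet, 5 Paneth and 5 B and plasma cell markers were also lower, and 5 of 7 crypt and cell cycle markers. Of these, 0 passed in limma, and 3 Paneth and 1 B and plasma cell markers were lower at an unadjusted p under 0.05. Among all 19938 genes, 12473 were lower. Of the 13 enterocyte markers, 11 were lower in ISR2 mucosa. At an unadjusted p under 0.05 in limma, 6 were lower and 0 higher, where 8.40% and 4.73% of all genes were. The 1 that passed, where 1.23% of all genes fell, was the brush border phosphatase Alpi. Its log2 change was -0.77 ± 0.16 (SE; adjusted p = 0.0417). Alpi kept this call without ISR2 replicate 2 (adjusted p = 0.0443) and lost it without each other array in turn (adjusted p 0.0657 to 0.194). The summed signal of that list was 16.4 to 16.7 on the ISR2 arrays and 16.7 to 16.8 on the wild type arrays on the log2 scale, and its median log2 change was -0.29. The structural brush border gene Vil1 differed by -0.34 and the lactase gene Lct by -0.48, with adjusted p of 0.29 and 0.131. Of 11 T cell and intraepithelial lymphocyte markers, 5 fell and 0 rose in limma, where 1.23% of all genes fell and 1.79% rose. At an unadjusted p under 0.05 these counts were 7 and 0, where 8.40% of all genes were lower and 4.73% higher. Their summed log2 signal was 10.5, 10.8 and 10.1 on ISR2 arrays 1, 2 and 3 and 11.8, 11.7 and 11.2 on wild type arrays 1, 2 and 3. Replicate 3 was the lowest of each group, as it was for Enpp7 and Asah2, and for Sptlc2 and Ugcg, which did not pass. Among 6 macrophage and dendritic markers 5 had lower values. At an unadjusted p under 0.05 in limma, 1 was lower, Lyz2 (log2 change -0.59), and 1 higher, where 8.40% and 4.73% of all genes were. After adjustment 1 passed, where 3.02% of all genes did. It was Cd14, a co-receptor for bacterial lipopolysaccharide, which rose (log2 change 1.16 ± 0.14, SE; adjusted p = 0.00223). Of the 11 smooth muscle and stroma markers, 7 had higher values, where 7465 of all 19938 genes did. In mixed mucosa, fewer cells of a type and less RNA per cell cannot be told apart.

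Asah1, the lysosomal acid ceramidase, was higher in ISR2 mucosa. It read 8.91, 8.95 and 9.02 on the ISR2 arrays, against 7.92, 7.88 and 8.10 on the wild type arrays. The groups did not overlap, and the ISR2 arrays spanned 0.11. The rise was 1.99-fold (log2 change 0.99 ± 0.12, SE; adjusted p = 0.00222 in limma; 95% interval 0.72 to 1.27), and it was 0.95 to 1.06 with 1 array left out.

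Smpd1, the acid sphingomyelinase of the lysosome, was also higher. Its values were 7.77, 7.77 and 7.57 on the ISR2 arrays and 6.53, 6.90 and 7.18 on wild type arrays 1, 2 and 3. The groups were separate by 0.39, and the wild type arrays covered a wider range (0.65) than the ISR2 arrays (0.20). The log2 change was 0.84 ± 0.17 (SE), a 1.79-fold rise (adjusted p = 0.037 in limma; 95% interval 0.44 to 1.23). Leaving out any ISR2 array, or wild type replicate 1 or 2, ended the call, and it was kept without wild type replicate 3. The adjusted p over those 6 fits was 0.0183 to 0.164 and the log2 change 0.67 to 0.99.

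**Figure D2:**
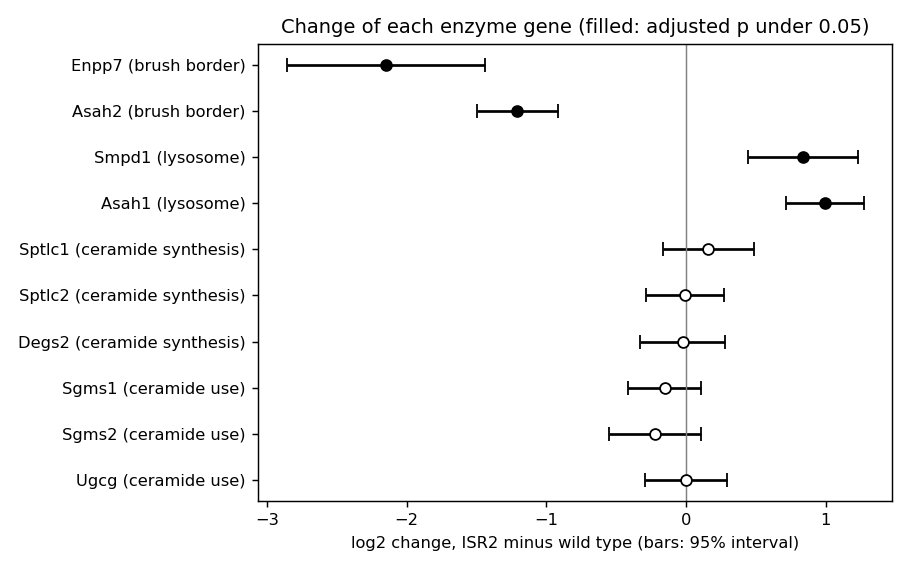
Log2 change of each enzyme gene, ISR2 minus wild type (horizontal axis), with its 95% interval as bars and filled points where the adjusted p was under 0.05. Enpp7 (-2.15) and Asah2 (-1.21) lie to the left of 0, Smpd1 (0.84) and Asah1 (0.99) to the right, and the intervals of the other 6 genes include 0.

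Within each array, the surface enzyme of each reaction was set against its lysosomal counterpart. These differences of log2 values are given as descriptions, and levels of different probe sets are not comparable, so only the shift between groups is read. Enpp7 minus Smpd1 was 2.72, 2.47 and 1.55 on the ISR2 arrays and 5.72, 5.32 and 4.64 on the wild type arrays. The shift of -2.98 corresponds to a ratio 7.91-fold lower in ISR2 mucosa. Asah2 minus Asah1 was 1.81, 1.96 and 1.64 on the ISR2 arrays and 4.10, 4.14 and 3.78 on the wild type arrays, a shift of -2.20 and a ratio 4.60-fold lower. On every ISR2 array, both differences were below those of all wild type arrays. Each shift is the surface enzyme's log2 change given above less that of the lysosomal enzyme, so it holds no new evidence.

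**Figure D3:**
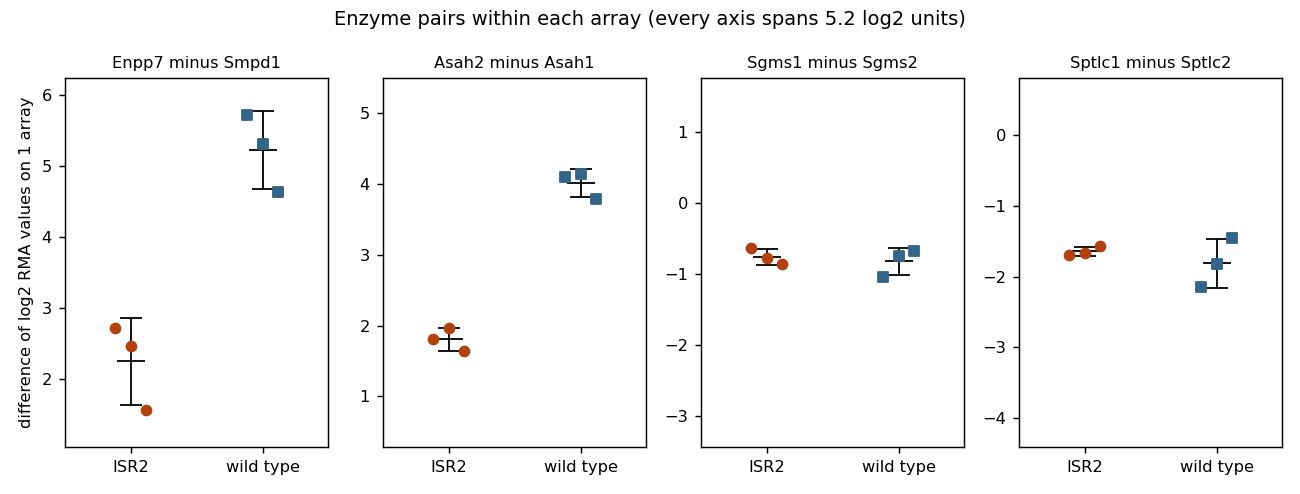
Difference of log2 RMA values between paired enzymes on the same array (vertical axes, each spanning 5.2 log2 units) for ISR2 (circles, left) and wild type (squares, right), with group means and SD as bars. The surface-to-lysosome differences were lower on all ISR2 arrays (mean 2.25 against 5.23 for Enpp7 minus Smpd1, and 1.80 against 4.01 for Asah2 minus Asah1), while those of the synthesis pairs overlapped.

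Sptlc1, Sptlc2 and Degs2, the genes of ceramide synthesis among the 10, did not pass. Sptlc1, a subunit of serine palmitoyltransferase, was at 8.37, 8.36 and 8.34 on the ISR2 arrays and at 7.96, 8.20 and 8.44 on the wild type arrays. Its log2 change was 0.16 ± 0.14 (SE; adjusted p = 0.728; 95% interval -0.17 to 0.48). The catalytic partner Sptlc2 was at 10.06, 10.03 and 9.91 on the ISR2 arrays and 10.11, 10.02 and 9.90 on the wild type arrays. Its change of -0.01 ± 0.12 (SE; adjusted p = 0.989) had a 95% interval of -0.29 to 0.27. Degs2, the hydroxylase that makes the phytoceramides abundant in small intestine, read 10.89, 10.97 and 10.97 in ISR2 and 11.03, 10.76 and 11.12 in wild type. It differed by -0.02 ± 0.13 (SE; adjusted p = 0.97; 95% interval -0.33 to 0.28). The groups overlapped for Sptlc1, Sptlc2 and Degs2.

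The enzymes that use ceramide did not pass either. Sgms1, the Golgi sphingomyelin synthase, was at 7.67, 7.59 and 7.64 on the ISR2 arrays and at 7.82, 7.73 and 7.81 on the wild type arrays. These groups did not overlap, which held for 19.8% of all genes, and the gap was 0.07 (log2 change -0.15 ± 0.11, SE; adjusted p = 0.658; 95% interval -0.41 to 0.11). Sgms2, the plasma membrane synthase, was at 8.30, 8.36 and 8.50 in ISR2 and at 8.86, 8.47 and 8.49 in wild type. Its change was -0.22 ± 0.15 (SE; adjusted p = 0.605; 95% interval -0.55 to 0.11), and the groups overlapped. Ugcg, whose product glucosylceramide is the base of most gut glycosphingolipids, was at 10.02, 9.89 and 9.82 in ISR2 and at 10.01, 9.96 and 9.76 in wild type. Both groups averaged 9.91, and the 95% interval of the difference was -0.29 to 0.29. Sgms1 minus Sgms2 shifted by 0.07 and Sptlc1 minus Sptlc2 by 0.17, within the spread of the arrays. The intervals for Sptlc2, Ugcg and Degs2 reach at most 0.33 from 0, and those of Sptlc1, Sgms1 and Sgms2 at most 0.55.

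The rest of the sphingolipid pathway was read from 60 further genes listed by role, of which 57 were measured. Among them 5 rose and 3 fell, or 14.0%, beside 3.02% of all genes. Their median log2 change was -0.02, and the groups did not overlap for 21 of the 57, beside 19.8% of all genes. Nothing particular to the lists is drawn from these counts.

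Of the 14 other measured genes of ceramide synthesis, 2 rose and 0 fell in limma, where 1.79% and 1.23% of all genes did. At an unadjusted p under 0.05, 4 were higher and 0 lower, where 4.73% and 8.40% of all genes were. Sptssb, a small subunit that stimulates serine palmitoyltransferase and favours longer acyl chains, had the widest change of the pathway. It was at 8.16, 8.86 and 7.53 on the ISR2 arrays and at 5.08, 5.22 and 4.93 on the wild type arrays. The signal rose by a log2 change of 3.11 ± 0.28 (SE; adjusted p = 0.000365), 2.77 to 3.43 with 1 array left out. The wild type signal of Sptssb averaged 5.08, below the 25th percentile of gene means (5.197) and within the range of the liver and pancreas markers, so no fold of RNA is given. The related subunit Sptssa differed by -0.01 (adjusted p = 0.992). Cers5, a ceramide synthase that makes ceramides of palmitate length, was at 8.06, 7.82 and 7.88 in ISR2 and at 6.87, 7.35 and 7.25 in wild type. It rose 1.70-fold (log2 change 0.76 ± 0.16, SE; adjusted p = 0.0336). Leaving out ISR2 replicate 1 or 3, or wild type replicate 1 or 3, ended the call, at an adjusted p of up to 0.164. Cers6, which makes ceramides of similar length, and Kdsr, the reductase after serine palmitoyltransferase, were higher without passing (log2 changes 0.52 and 0.45, adjusted p = 0.0953 and 0.0894).

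Of the 9 other genes of sphingomyelin synthesis, transfer and hydrolysis, 0 rose and 2 fell in limma (1.79% and 1.23% of all genes). At an unadjusted p under 0.05, 2 were higher and 3 lower (4.73% and 8.40% of all genes). Smpdl3b, a membrane-anchored relative of acid sphingomyelinase, was at 8.65, 8.95 and 8.12 on the ISR2 arrays and at 10.41, 10.37 and 9.71 on the wild type arrays. It fell 3.01-fold (log2 change -1.59 ± 0.25, SE; adjusted p = 0.00791), and replicate 3 was the lowest of each group, as for Enpp7, Asah2, Sptlc2 and Ugcg. Smpd2, a neutral sphingomyelinase, was at 8.83, 8.67 and 8.68 in ISR2 and 9.35, 9.27 and 9.24 in wild type, with a log2 change of -0.56 ± 0.12 (SE; adjusted p = 0.0401). That call was lost in each of the 6 fits without 1 array, with adjusted p of 0.0793 to 0.179. Samd8, a synthase of ceramide phosphoethanolamine, differed by -0.56 (adjusted p = 0.0572) and Gltp, a glycolipid transfer protein, by 0.48 (adjusted p = 0.118).

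**Figure D4:**
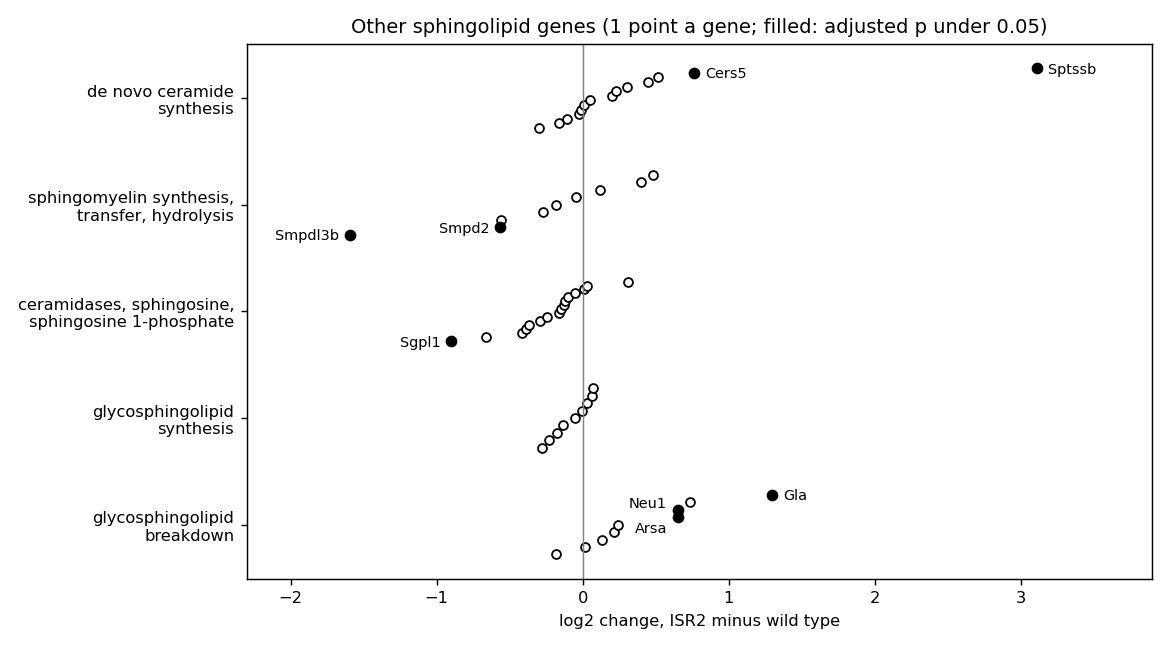
Log2 change, ISR2 minus wild type (horizontal axis), of the 57 other sphingolipid genes by list, 1 point a gene, filled and named where the adjusted p was under 0.05. Sptssb (3.11) and Gla (1.30) lie farthest to the right and Smpdl3b (-1.59) farthest to the left, and no gene of glycosphingolipid synthesis is filled.

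Among 16 genes of ceramidases, sphingosine and sphingosine 1-phosphate, 1 fell and 0 rose in limma, or 6.25% beside 3.02% of all genes. At an unadjusted p under 0.05, 5 were lower and 1 higher (8.40% and 4.73% of all genes). The called gene was Sgpl1, the lyase that ends the pathway by splitting sphingosine 1-phosphate. Its values were 9.82, 9.88 and 10.04 on the ISR2 arrays and 10.94, 10.81 and 10.68 on the wild type arrays, a 1.86-fold fall (log2 change -0.90 ± 0.13, SE; adjusted p = 0.00539). The call was kept in all 6 fits without 1 array (adjusted p = 0.0117 to 0.0408). The receptor S1pr2 differed by -0.66 (adjusted p = 0.147) and passed without ISR2 replicate 2 (log2 change -0.84, adjusted p = 0.0459), and its adjusted p over all alternatives was 0.00896 to 0.46. The ceramide kinase gene Cerk differed by -0.42 (adjusted p = 0.185). The alkaline ceramidases Acer1, Acer2 and Acer3 differed by -0.05, 0.01 and 0.03.

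The list of glycosphingolipid breakdown, which holds lysosomal enzymes, their activator proteins and a glucosylceramidase outside the lysosome, had 9 measured genes. Of these 3 rose and 0 fell in limma (1.79% and 1.23% of all genes), and 4 were higher and 0 lower at an unadjusted p under 0.05 (4.73% and 8.40% of all genes). Gla, the alpha-galactosidase that trims globo-series lipids, was at 8.01, 8.03 and 7.99 on the ISR2 arrays and at 6.74, 6.56 and 6.84 on the wild type arrays. It rose 2.46-fold (log2 change 1.30 ± 0.12, SE; adjusted p = 0.000523), and the 3 ISR2 arrays lay within 0.04 of each other. The sialidase gene Neu1 and the sulfatide-cleaving arylsulfatase gene Arsa both rose 1.57-fold (log2 changes 0.65 ± 0.13 and 0.65 ± 0.13, SE; adjusted p = 0.0268 and 0.036). Leaving out ISR2 replicate 1 or 3, or wild type replicate 2 or 3, ended the call of Neu1 (adjusted p at most 0.121), and leaving out any array but ISR2 replicate 2 ended that of Arsa (at most 0.169). Galc, which removes galactose from galactosylceramide, differed by 0.73 (adjusted p = 0.107), and it passed without ISR2 replicate 2 (log2 change 0.89, adjusted p = 0.0448; 0.0133 to 0.368 over all alternatives). Every value of Galc, 4.99 to 6.31, lay within the range of the liver and pancreas markers. Gba2, that glucosylceramidase, differed by 0.24 (adjusted p = 0.61). Psap, the precursor of the activator proteins that several of these enzymes need, differed by 0.02 (adjusted p = 0.986), and Glb1 by -0.18 (adjusted p = 0.812).

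In glycosphingolipid synthesis, most of it downstream of Ugcg, 0 of 9 genes passed in limma, and 0 had an unadjusted p under 0.05. Log2 changes ran from -0.28 to 0.07, and the smallest p-values were those of Gal3st1, which makes sulfatide, and Ugt8a, which makes galactosylceramide (-0.23 and -0.14, adjusted p = 0.472 and 0.719). Ugt8a lay within the range of the liver and pancreas markers on every array. The galactosyltransferases B4galt5 and B4galt6, which extend the Ugcg product, differed by 0.03 and -0.01.

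**Figure D5:**
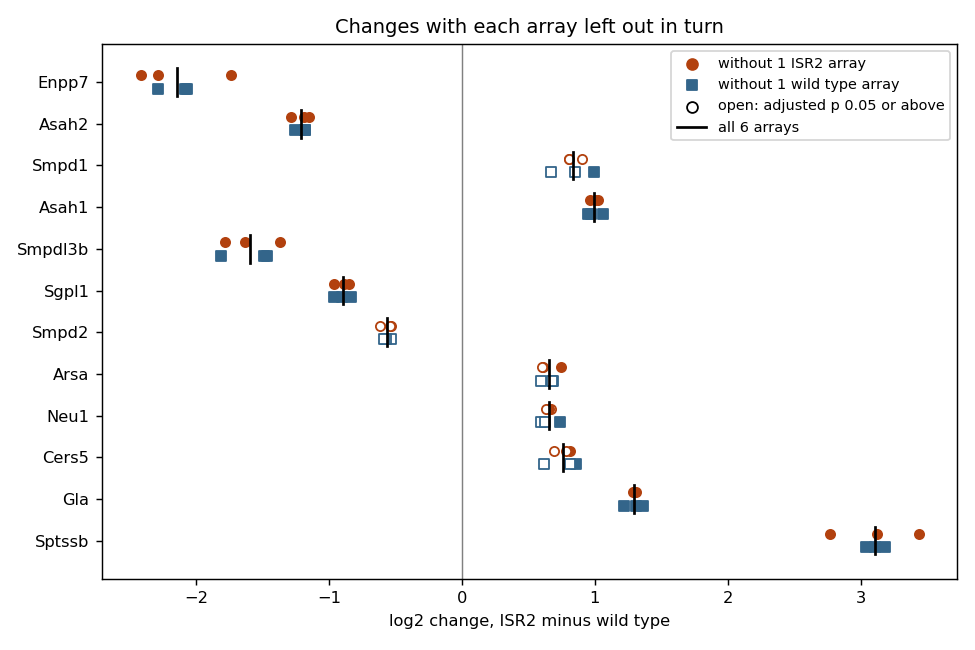
Log2 change, ISR2 minus wild type (horizontal axis), of the 4 called enzymes and the 8 called genes of the wider pathway with all 6 arrays (black lines) and without each ISR2 array (circles) or wild type array (squares), open where the adjusted p was 0.05 or above. Enpp7, Asah2, Asah1, Smpdl3b, Sgpl1, Gla and Sptssb are filled throughout, and Smpd1, Smpd2, Arsa, Neu1 and Cers5 have open points, all on the same side of 0.

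The genes whose values ran most like Enpp7 and Asah2 over the 6 arrays were looked up among the genes tested. Predicted genes, olfactory and vomeronasal receptors and genes with clone or accession names as symbols were skipped. The arrays fall into the 2 groups, so Pearson's r mainly reflects the group difference and is a description. Nearest to Enpp7 were Rnf121 (r = 0.999), Ceacam20 (0.993), Tmem165 (0.991), Cd8a (0.991) and Ms4a8a (0.988). Of these, Ceacam20, Cd8a and Ms4a8a fell (log2 changes -1.11, -0.91 and -0.66), and Rnf121 and Tmem165 did not pass (-0.42 and -0.40). Cd8a is a marker of cytotoxic T cells. Leaving out wild type replicate 1 or 2 ended the call of Ceacam20 (adjusted p at most 0.0963), and leaving out any of wild type replicates 1 and 2 and ISR2 replicate 3 ended that of Cd8a (at most 0.118). Of the 6 fits without 1 array, Ms4a8a kept its call only in that without ISR2 replicate 2 (at most 0.215 in the others). Nearest to Asah2 were Bmp8a (r = 0.999), Susd2 (0.998), Dnase1 (0.996), Tub (0.996) and Stx5a (0.995). Bmp8a, Susd2 and Dnase1 fell (log2 changes -1.74, -3.62 and -2.33), and Tub and Stx5a did not pass (-0.22 and -0.29). Enpp7 and Asah2 correlated at r = 0.950 with each other over the 6 arrays and at 0.615 in their deviations from the group means. Deviations of Enpp7 ran closer to those of Sptlc2 (0.797) and Ugcg (0.753), which did not pass, and opposite to those of Asah1 (-0.667). These values rest on 6 arrays. The widest deviation of Enpp7 was on ISR2 replicate 3 (9.13, beside 10.49 and 10.24 on ISR2 replicates 1 and 2). No relation within the groups is drawn from them.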

How the data were processed

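Total RNA from jejunal mucosa was labelled with biotin and hybridised to Affymetrix arrays, 3 of ISR2 and 3 of wild type mice, per the labels. The deposited values are on a log2 scale and were made by the authors with RMA, per the submitters' processing notes. No RMA version or filter is given in the sources used here. RMA equalises the arrays, so a change is relative to the bulk of genes, and signal left from background can compress changes of dim genes. The table held 35556 rows, of which 21789 had 1 gene symbol in the array annotation, and the 19938 genes tested take 1 row each, that with the highest mean over the 6 arrays. No coordinates of array rows are given.

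Groups came from sample titles. The limma package (3.58.1, under R 4.3.3) compared ISR2 with wild type in all genes by lmFit and eBayes, with no covariates, and p-values were adjusted by Benjamini-Hochberg (two-sided, threshold 0.05). Intervals are 95% intervals of that fit. On simulated data for this comparison (19938 genes), the fit found 4% of genes given a log2 change of 0.5, 60% of those given 1 and 98% of those given 2, with 4 false among 135 calls. The simulated noise was drawn independently for each gene and lacked signal shared over an array, so these rates may not hold for these arrays. Figures were drawn with matplotlib 3.10.9.

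The fit was repeated with arrays left out, weighted, median-centred or quantile-normalized, with all rows, averaged probe sets or bright genes alone, with a replicate block, with a trended or robust eBayes prior, and at other thresholds.

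The 10 enzymes and the lists were chosen with earlier results of these data known. Named are the 10, and per list up to 6 called genes and 2 others with the smallest p. Also named are the 5 genes most like each of Enpp7 and Asah2, among genes not skipped. Sptssa, the Acer genes, Psap, Glb1, B4galt5, B4galt6, Alpi, Cd14, Vil1 and Lct were named after their values were seen. Of the 60 pathway genes listed, 3 were not analysed here. Protein sequences were not used.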

Additional observations from a re-analysis of the deposited data

How the results depend on the processing

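The falls of Enpp7 and Asah2 and the rise of Asah1 kept their call in all 16 alternative fits, and Smpd1 kept its direction but lost its call in 6, all rows tested (adjusted p = 0.104) and 5 fits without 1 array among them. With all rows tested 1 of the 10 enzymes rose, and 1 to 2 rose and 2 fell without 1 array at a time. In the wider pathway 9 rose and 5 fell with array weights and 2 rose with all rows tested. Without 1 array at a time 2 to 6 rose and 2 to 3 fell: 2 rose without ISR2 replicate 1 or 3 or wild type replicate 3, and 3 without wild type replicate 1 or 2. Over all genes 356 rose and 246 fell. With array weights 630 rose and 638 fell, 155 fell after median centring, where 415 rose, and 106 fell with all rows tested. At an adjusted p of 0.10, 386 fell. With 0.05 unadjusted and at least a 1.5-fold change, 404 fell. Without 1 array at a time 236 to 353 rose and 85 to 236 fell. Without both wild type replicate 3 and ISR2 replicate 2, 472 rose and 303 fell. The cause of these shifts was not tested. Smpd2, Ms4a8a and Alpi lost their calls after median centring (adjusted p = 0.0872, 0.1003 and 0.0882). Samd8 passed with array weights, with quantile normalization and without dim genes. The shift of Enpp7 minus Smpd1 was -3.28 to -2.64 without 1 array at a time, of Asah2 minus Asah1 -2.31 to -2.12, of Sgms1 minus Sgms2 -0.04 to 0.14 and of Sptlc1 minus Sptlc2 -0.002 to 0.34. Replicate numbers are shared between groups, and the titles do not say whether they pair the samples. Same-numbered deviations correlated at -0.016, 0.323 and 0.540 for replicates 1, 2 and 3. For replicates 2 and 3, but not 1, the same-numbered array of the other group correlated best, seen from either group. With the replicate number as a block, 426 genes rose and 352 fell, 2 and 2 of the 10 enzymes and 6 and 3 of the wider pathway, with Galc added (adjusted p = 0.0498).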
